A study of Mus musculus with 12 samples.

Results

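The BCL2 family genes described here are Bcl2, Bcl2l1, Mcl1, Bcl2l11, Bax, Bak1, Bid, Bad, Pmaip1 and Bbc3, taken from the count table by gene symbol. They make up 10 of the 25078 genes in the count table, and all 10 passed the filter on low counts in every comparison. RNA-Seq was performed on donor T cells taken from the liver on day 6 after allogeneic hematopoietic cell transplantation (HCT). In this transplantation, lethally irradiated BALB/c mice received C57BL/6 donor T cells together with T cell-depleted bone marrow from WT C57BL/6 donors. The recipients of all groups were WT. The comparison asks how loss of STAT3, alone or together with loss of PD-1, in the donor T cells was reflected in their RNA. Donor CD4+ and CD8+ T cells were sorted separately, and each of 6 groups had 2 libraries, each made from lymphocytes combined from 3 recipients. The pools give the spread between libraries, and no single recipient was measured.

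The 3 donor genotypes were WT, STAT3-/- and STAT3-/-PD-1-/-, all on the C57BL/6 background. In STAT3-/- donors, a floxed Stat3 gene was deleted by Cre recombinase under the CD4 promoter, which is active in T cells and deletes the gene in both CD4+ and CD8+ cells. STAT3-/-PD-1-/- donors carried the same deletion together with germline loss of PD-1, so that by design STAT3-/-PD-1-/- and STAT3-/- T cells differed in the PD-1 allele, and STAT3-/-PD-1-/- and WT T cells in both genes. The PD-1 allele was bred in by crossing, and Pdcd1 lies at chr1:94038305-94052553 (GRCm38), on the same chromosome as Bcl2. Any part of DNA linked to that allele in the results was not tested. A comparison of PD-1-/- with WT T cells on an intact Stat3 background was not analysed here. Cells were sorted as H-2Kb+TCRβ+CD4+ or CD8+, H-2Kb being the donor class I molecule. The libraries held between 21676125 and 24551477 counts, with a median of 23442480.

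The BCL2 family sets the threshold at which a cell enters mitochondrial apoptosis. Anti-apoptotic members hold the pore-forming effectors in check, and BH3-only members relay death signals by binding the anti-apoptotic members or by activating the effectors directly. In T cells, the balance between BCL2 and the BH3-only protein BIM is known for its part in the death of activated cells after an immune response, and MCL1 is required for the survival of lymphocytes.

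The RNA of the deleted genes was examined first as a check of the labels. Levels are given as CPM (each count over the library total) scaled by the trimmed mean of M-values (TMM), which compare 1 gene between libraries. Stat3 was present at 369 and 467 TMM CPM in the WT CD4+ libraries, 139.9 and 164 in STAT3-/- and 157 and 219 in STAT3-/-PD-1-/-. The Stat3 levels of the CD8+ libraries, in the same order, were 397 and 384, 149 and 136, and 154 and 235. All deleted libraries were below all WT libraries, although reads on exons outside the deleted part also count. The Stat3 log2 fold change of STAT3-/- against WT was -1.46 in each subset, with edgeR adjusted p of 0.0550 in CD4+ and 0.108 in CD8+ T cells, so Stat3 itself did not pass the threshold of 0.05 with 2 libraries a group. Pdcd1, which encodes PD-1, stood at 55.1 and 26.0 TMM CPM in STAT3-/-PD-1-/- CD4+ T cells, as compared with 235 to 323 in the other 4 CD4+ libraries. The Pdcd1 levels in CD8+ T cells were 93.6 and 65.6, as compared with 307 to 454 in the others. Pdcd1 was lower in all 4 comparisons of STAT3-/-PD-1-/- T cells, with log2 fold changes from -2.83 to -2.09.

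The T cell identity of the libraries was clear from their markers. All 8 T cell markers (such as Cd3e and Thy1) were detected in every library, and Cd4 averaged 1645 TMM CPM in CD4+ and 1.09 in CD8+ libraries, while Cd8a averaged 1.74 and 987. The 12 hepatocyte markers summed to 1.60 to 5.84 TMM CPM, with Trf up to 2.69 and Alb no higher than 0.519. The B cell gene Ms4a1 was at 0 in all 12 libraries. Marker sums did move with genotype, and they are given beside the results they accompany.

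The deposited RPKM values are on a per-length scale, which allows genes to be compared. They divide reads by gene length and by a scaled library size, which was 0.942 to 1.02 times the library total. On this scale Mcl1 was the most abundant of the 10 transcripts, with a median of 140.3 RPKM over the 12 libraries and a range of 111 to 196. Bak1 followed at a median of 114 RPKM (101 to 120.4), which overlapped the lower Mcl1 libraries, and Bax at 73.5 RPKM (67.6 to 77.6), which did not overlap either. Pmaip1 had a median of 45.0 RPKM, Bcl2l11 36.5, Bcl2l1 33.6, Bcl2 32.9 and Bid 27.4, and the ranges of these neighbours overlapped. Bbc3 at 11.1 RPKM and Bad at 9.90 RPKM were lowest by median and also overlapped each other. Bbc3, up to 20.1 RPKM, overlapped Bid as well, which began at 14.4 RPKM. Pmaip1 ranged from 23.3 to 90.1 RPKM and so spanned the range of Bax.

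Of the anti-apoptotic members, Bcl2, the founding member of the family, lies on the minus strand of mouse chromosome 1 at chr1:106538176-106714290 (GRCm38). The promoters of Bcl2 and Bid are shown because these were the 2 members that passed the test in a comparison between genotypes. Each sequence, from RefSeq on GRCm38.p6, gives 250 bases before the annotated start in lower case and the first 50 bases of the transcript in capitals. The Bcl2 promoter, at chr1:106714241-106714540 on the minus strand, had a GC content of 76% and 44 CpG dinucleotides, a GC content at the 96.9th percentile of 32851 promoters of this length. The Bid promoter, at chr6:120916775-120917074 on the minus strand, had a GC content of 63.3% and 22 CpG dinucleotides.
Bcl2: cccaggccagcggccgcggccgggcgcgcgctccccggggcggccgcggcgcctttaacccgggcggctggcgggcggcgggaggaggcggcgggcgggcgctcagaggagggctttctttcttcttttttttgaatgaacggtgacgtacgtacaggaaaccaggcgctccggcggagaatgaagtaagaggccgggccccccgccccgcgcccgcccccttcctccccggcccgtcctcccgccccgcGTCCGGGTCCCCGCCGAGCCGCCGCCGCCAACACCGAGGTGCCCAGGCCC
Bid: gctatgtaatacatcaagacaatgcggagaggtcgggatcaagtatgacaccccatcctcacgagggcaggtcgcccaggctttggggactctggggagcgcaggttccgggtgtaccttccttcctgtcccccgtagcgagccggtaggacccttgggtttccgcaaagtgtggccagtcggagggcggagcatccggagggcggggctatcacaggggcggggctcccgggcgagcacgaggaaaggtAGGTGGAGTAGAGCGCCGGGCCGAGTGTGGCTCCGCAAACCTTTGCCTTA

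Promoters of 9 of the 10 members were matched, 15 sequences in all. The STAT letters TTCNNNGAA, searched on both strands, were in 0 of the 15, and in 8.3% of all 32851 promoters. The FOXO letters GTAAACA, searched on both strands, were in 2 of the 15 and in 3.65% of all promoters. One of the 2 belonged to a Bcl2l11 start site and is shown with its match in capitals, a sequence chosen after the match was seen. It lies at chr2:128125788-128126087 on the plus strand, and the match begins 227 bases before the start.
Bcl2l11: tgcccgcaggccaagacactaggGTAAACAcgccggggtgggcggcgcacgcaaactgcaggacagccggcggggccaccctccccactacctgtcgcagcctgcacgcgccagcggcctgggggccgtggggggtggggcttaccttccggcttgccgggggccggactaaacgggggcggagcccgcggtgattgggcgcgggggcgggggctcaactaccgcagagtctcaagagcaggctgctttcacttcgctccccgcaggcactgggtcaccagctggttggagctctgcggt
The other match was in a Bbc3 promoter at chr7:16310011-16310310, as the reverse complement TGTTTAC, 167 bases before the start. The letters describe these windows only.

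Bcl2 RNA was lower in STAT3-/-PD-1-/- T cells of both subsets. Bcl2 stood at 306 and 298 TMM CPM in the WT CD4+ libraries, 243 and 271 in STAT3-/- and 127 and 116 in STAT3-/-PD-1-/-. In the CD8+ libraries, the Bcl2 levels were 278 and 237 in WT, 238 and 245 in STAT3-/-, and 106 and 93.0 in STAT3-/-PD-1-/-. Both STAT3-/-PD-1-/- libraries of each subset were below all 4 others of that subset, and WT and STAT3-/- libraries overlapped in CD8+ but not in CD4+ T cells. As compared with WT CD4+ T cells, those lacking both genes held Bcl2 at 0.408 times the level (log2 fold change -1.29, SE 0.14, edgeR adjusted p = 0.00414), and in CD8+ T cells at 0.390 times (-1.36, SE 0.13, adjusted p = 0.00259). Set against STAT3-/- T cells, Bcl2 fell by 1.06 in log2 units among CD4+ (SE 0.14, edgeR adjusted p = 0.00882) and by 1.26 among CD8+ T cells (SE 0.13, adjusted p = 0.00357). The change against WT did not differ detectably between the subsets, with a difference of -0.05 in log2 units and a 95% interval from -0.45 to 0.34. Both comparisons of STAT3-/-PD-1-/- T cells within a subset share the same 2 STAT3-/-PD-1-/- libraries. Without STAT3-/-PD-1-/- library 2, the Bcl2 call against WT in CD4+ T cells was lost (adjusted p = 0.0623), as were the calls against STAT3-/- in CD4+ (0.122) and CD8+ T cells (0.0586), and without STAT3-/-PD-1-/- library 1 the CD4+ call against STAT3-/- was lost (0.0580), while the log2 fold change stayed between -1.48 and -0.98 in all of these. In a bulk sample, fewer cells of a type and less RNA per cell cannot be told apart.

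STAT3-/- T cells with intact PD-1 did not differ detectably from WT T cells in Bcl2. The log2 fold change was -0.23 in CD4+ T cells, with a 95% interval from -0.55 to 0.10, and -0.09 in CD8+ T cells, with an interval from -0.39 to 0.20. Taken by mean level, Bcl2 was highest in WT CD4+ T cells at 302 ± 5.56 TMM CPM (SD, n = 2). WT CD8+ (257 ± 28.9), STAT3-/- CD4+ (257 ± 19.7) and STAT3-/- CD8+ T cells (241 ± 4.94) came next and overlapped one another. STAT3-/-PD-1-/- CD4+ (121 ± 7.61) and CD8+ T cells (99.8 ± 9.52) were lowest, and their libraries did not overlap each other.

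**Figure D1:**
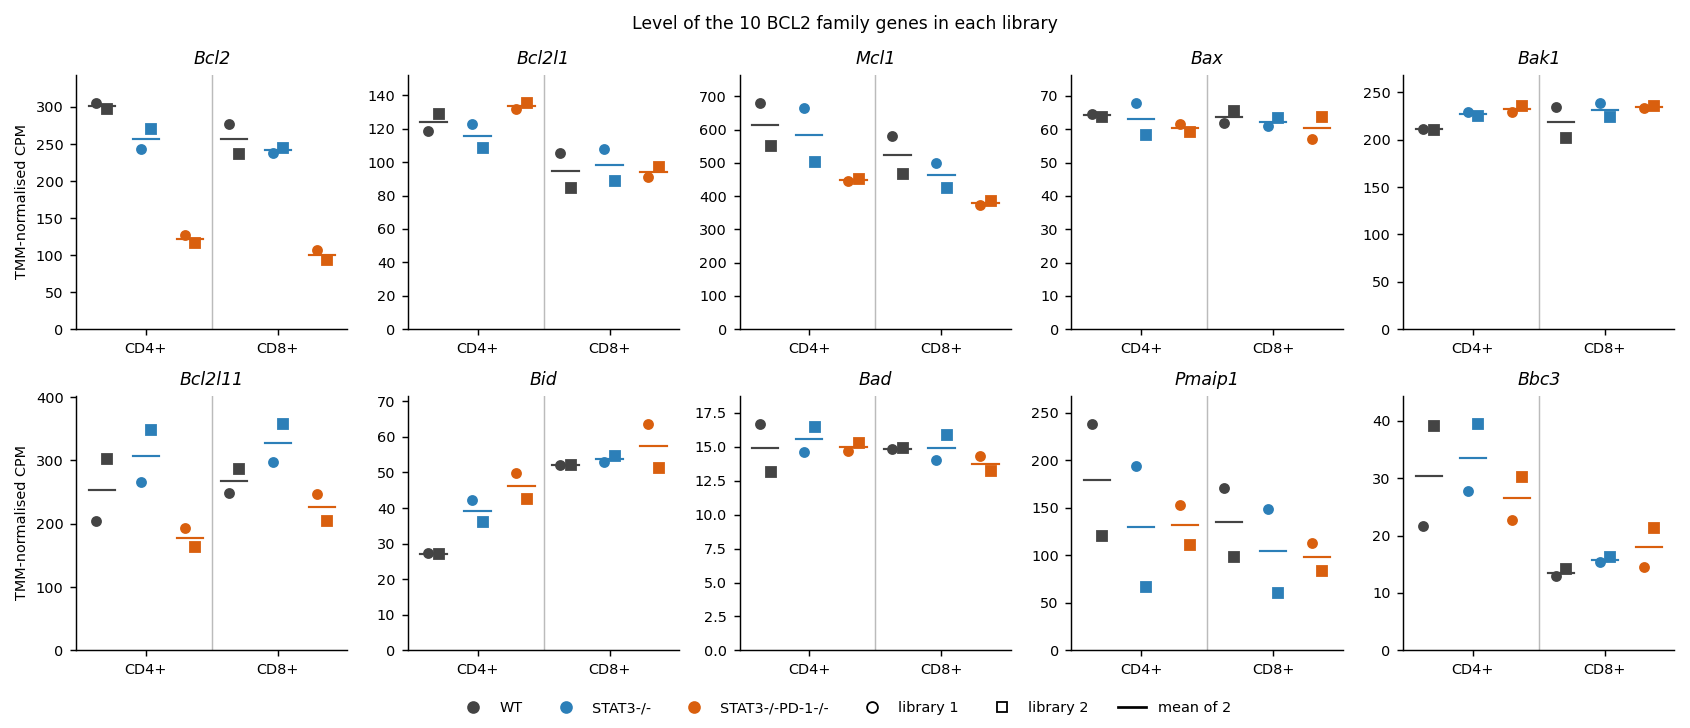
TMM CPM (y axis, starting at 0) of each of the 10 genes in the 12 libraries, by subset (x axis) and donor genotype (color); circles are library 1, squares library 2, and the line is the mean of 2. The STAT3-/-PD-1-/- libraries lie below all others for Bcl2, at 93.0 to 127, while Bax and Bak1 stay nearly level. As a ratio of library 1 to library 2, Pmaip1 spreads most within a group, at 2.91 in STAT3-/- CD4+ T cells.

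Several marker sums moved with the lower Bcl2. The summed level of the 8 T cell markers, of which Thy1 was the most abundant, was 5022 to 5222 TMM CPM in STAT3-/-PD-1-/- and 5556 to 6309 in the other CD4+ libraries, and 4488 to 4525 and 5498 to 6033 in CD8+ T cells. Among these markers, Cd2 (log2 fold change -0.53) was lower than WT in STAT3-/-PD-1-/- CD4+ T cells, and Cd3d, Cd247, Lck and Cd2 (-0.67 to -0.46) were lower than WT in CD8+ T cells. The coreceptor genes were lower too, Cd4 by a log2 fold change of -0.52 among CD4+ and Cd8a by -1.09 among CD8+ T cells. The 12 myeloid and neutrophil markers summed to 18.9 to 21.5 TMM CPM in STAT3-/-PD-1-/- CD4+ T cells against 47.2 to 73.9 in the others. In CD8+ T cells, they summed to 25.9 to 26.2 against 81.8 to 105. Outside STAT3-/-PD-1-/- libraries, Itgam was the most abundant of them, up to 69.9 TMM CPM. Mean Itgam in CD4+ T cells was 9.59 in STAT3-/-PD-1-/-, 51.5 in WT and 42.7 in STAT3-/-. Mean Cd68 in CD4+ T cells was not lower, at 9.45 in STAT3-/-PD-1-/-, 8.48 in WT and 6.43 in STAT3-/-. Cd14, S100a8 and S100a9 were at 0 in 2, 3 and 4 of the 12 libraries. In CD8+ T cells, the 5 NK cell markers summed to 31.2 to 48.8 against 66.2 to 91.2, with Klrb1c most abundant up to 56.2 and Klra8 at 0 in all libraries. In CD4+ T cells, the 5 B cell markers summed to 9.73 and 18.6 in WT, 33.4 and 42.0 in STAT3-/- and 43.6 and 44.6 in STAT3-/-PD-1-/- libraries. Most of each sum was Cd22, which was highest at 43.0. The larger part of this rise lay between WT and STAT3-/-, where Bcl2 did not differ detectably. Among CD8+ libraries, the B cell markers summed to 19.8 to 19.9 in STAT3-/-PD-1-/- against 24.6 to 28.4 in the others. The 6 endothelial markers summed to 167 in both STAT3-/-PD-1-/- CD4+ libraries against 179 to 198 in the other CD4+ libraries, nearly all of it Pecam1, and overlapped in CD8+ T cells (111 to 122 against 116 to 129.9). Of single markers in lists whose sums overlapped, Eomes of the NK cell list was higher in STAT3-/-PD-1-/- CD4+ T cells (log2 fold change 1.40 against WT and 1.14 against STAT3-/-) and Klre1 lower (-2.09 against STAT3-/-), and Trf of the hepatocyte list was higher than in STAT3-/- CD8+ T cells (1.73). The part of these markers in the Bcl2 result was not tested.

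Mcl1, which restrains BAK1 and is turned over rapidly in cells, was lower in every STAT3-/-PD-1-/- library than in any other library of its subset, without passing the test. The Mcl1 level was 681 and 549 TMM CPM in WT CD4+ T cells, 665 and 504 in STAT3-/- and 445 and 451 in STAT3-/-PD-1-/-. The CD8+ libraries had 581 and 466, 500.4 and 424, and 372 and 385. Against WT, Mcl1 in STAT3-/-PD-1-/- T cells had a log2 fold change of -0.43 in CD4+ (SE 0.17, edgeR adjusted p = 0.151) and -0.46 in CD8+ T cells (SE 0.14, adjusted p = 0.0609). In both subsets, the 2 WT libraries and the 2 STAT3-/- libraries each differed by more than the STAT3-/-PD-1-/- libraries did. The test weighs the spread within all 3 genotypes of a subset. With the replicate number as a block, Mcl1 was called lower than WT in both subsets (edgeR adjusted p = 0.0459 in CD4+ and 0.0344 in CD8+ T cells). Bcl2l1, which encodes BCL-XL, was not called between genotypes. In CD4+ T cells it lay at 132 and 135 TMM CPM in STAT3-/-PD-1-/- libraries, above the 108 to 129 of the 4 others, and in CD8+ T cells, at 84.6 to 108, the genotypes overlapped. For this gene, the log2 fold changes of STAT3-/-PD-1-/- against WT were 0.13 (95% interval -0.20 to 0.47) and 0.00 (-0.36 to 0.36).

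The effectors Bax and Bak1, whose products form the pore in the outer mitochondrial membrane, stayed close to their WT levels. Bax ranged from 57.2 to 67.9 TMM CPM and Bak1 from 202 to 239 TMM CPM over all 12 libraries. In STAT3-/-PD-1-/- against WT T cells, the Bax log2 fold change was -0.07 in CD4+ (95% interval -0.41 to 0.27) and -0.06 in CD8+ T cells (-0.35 to 0.22). For Bak1 it was 0.16 (-0.15 to 0.46) and 0.12 (-0.15 to 0.39). Changes smaller than these intervals were not detectable with 2 libraries a group.

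Among the BH3-only members, Bid, which links death receptor signaling to mitochondria once cleaved by caspase-8, was higher in STAT3-/-PD-1-/- than in WT CD4+ T cells. Bid stood at 27.3 and 27.1 TMM CPM in the WT CD4+ libraries, 42.2 and 36.1 in STAT3-/- and 49.7 and 42.5 in STAT3-/-PD-1-/-. Among CD8+ libraries it was 52.0 and 52.2, 52.8 and 54.7, and 63.6 and 51.2. The CD4+ libraries of the 3 genotypes were ordered without overlap, whereas those in CD8+ T cells overlapped between STAT3-/-PD-1-/- and the others. Against WT, Bid rose by 0.78 in log2 units in STAT3-/-PD-1-/- CD4+ T cells (SE 0.16, edgeR adjusted p = 0.0222), and its log2 fold change in STAT3-/- CD4+ T cells was 0.53 (unadjusted p = 0.0124, edgeR adjusted p = 0.285). The change in CD8+ T cells was 0.15 (95% interval -0.17 to 0.47), and the difference between CD8+ and CD4+ T cells was -0.62 (SE 0.20, edgeR adjusted p = 0.625). Leaving out either WT or either STAT3-/-PD-1-/- CD4+ library ended the Bid call, with edgeR adjusted p from 0.0954 to 0.128, while the log2 fold change stayed between 0.67 and 0.88.

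Bcl2l11, which encodes BIM, the partner of BCL2 in T cell death, was highest in STAT3-/- and lowest in STAT3-/-PD-1-/- T cells by mean level. The CD4+ levels were 205 and 303 TMM CPM for WT, 266 and 348 for STAT3-/-, and 193 and 164 for STAT3-/-PD-1-/- donors. For CD8+ T cells they were 249 and 286, 297 and 358, and 247 and 205. STAT3-/-PD-1-/- libraries did not overlap STAT3-/- libraries in either subset. Between them, Bcl2l11 had log2 fold changes of -0.77 for CD4+ (SE 0.23, edgeR adjusted p = 0.0746) and -0.52 for CD8+ T cells (SE 0.15, adjusted p = 0.0548), so neither passed the threshold. It was called lower in 5 of 9 alternative fits of all libraries of the 2 groups in CD4+ and 4 of 9 in CD8+ T cells, the edgeR fits with the replicate number as a block among them (adjusted p = 0.0235 and 0.0449).

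Bad, which binds BCL2 and BCL-XL when dephosphorylated, ranged from 13.1 to 16.7 TMM CPM with no change past the threshold in any comparison. Pmaip1, which encodes NOXA, a binder of MCL1, and Bbc3, which encodes PUMA, are both known as p53 targets. Neither passed the test between genotypes, and both varied between the 2 libraries of a group. Pmaip1 was higher in library 1 than in library 2 in 6 of 6 groups, by 0.43 to 1.54 in log2 units, as in STAT3-/- CD4+ T cells at 194 and 66.4 TMM CPM. Bbc3 was lower in library 1 in 6 of 6 groups, by 0.08 to 0.85. Over all 12334 genes tested, 19.4% lay on the same side in all 6 groups, and the CD4+ and CD8+ libraries of a number come from the same pools. The fold changes of these 2 genes are therefore the least precise of the 10. In the fit without the replicate number, the 95% interval for Pmaip1 in STAT3-/-PD-1-/- against WT CD4+ T cells ran from -1.56 to 0.72. Within a subset and number, Pmaip1 was lower than WT in every STAT3-/- and STAT3-/-PD-1-/- library, whereas Bbc3 lay on both sides of WT. Neither gene was called between genotypes in any of 9 alternative fits, the replicate block included.

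**Figure D2:**
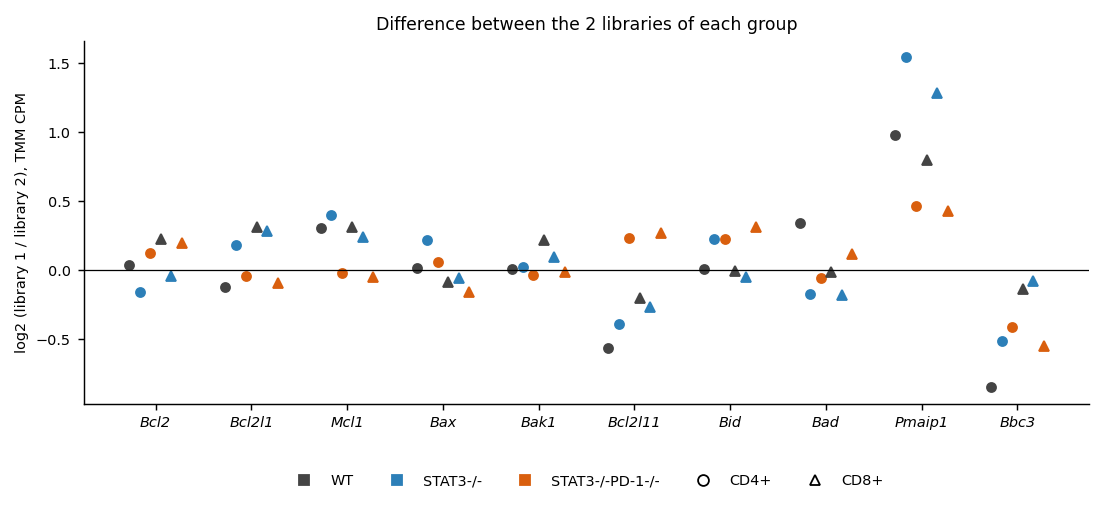
Log2 ratio of TMM CPM in library 1 over library 2 (y axis) for each gene (x axis); color is donor genotype and shape the subset. Pmaip1 lies above 0 and Bbc3 below 0 in all 6 groups, whereas Bax and Bak1 stay within 0.22 of 0.

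Counting over the 10 members, 0 passed the edgeR adjusted p of 0.05 in STAT3-/- against WT T cells of either subset, where 0.334% of 11959 genes tested passed in CD4+ and 0.0583% of 12002 in CD8+ T cells. At an unadjusted p under 0.05, the count was 1 (Bid) in CD4+ and 0 in CD8+ T cells, beside 1259 of 11959 and 1315 of 12002 genes, and with DESeq2 at the adjusted threshold it was 0 in both. In STAT3-/-PD-1-/- against WT T cells, 2 of 10 passed in CD4+ (Bid higher, Bcl2 lower), beside 12.9% of all genes, and 1 of 10 (Bcl2 lower) in CD8+ T cells, beside 17.2%. Against STAT3-/- T cells, Bcl2 was the 1 of 10 that passed in each subset, beside 11.1% of all genes in CD4+ and 16.8% in CD8+ T cells. With the replicate number as a block, 3 of 10 passed against WT in CD4+ and 2 of 10 in each of the other 3 comparisons. For CD8+ T cells, no blocked count over all genes is given here, so those member counts have no background beside them. In CD4+ T cells, the genes called rose from 1538 to 3104 against WT and from 1324 to 3105 against STAT3-/- with the block. For STAT3-/- against WT CD4+ T cells, they rose from 40 to 303. Such background counts rest on both STAT3-/-PD-1-/- libraries. Without library 2 of that genotype, 62 genes passed against WT and 0 against STAT3-/- among CD4+ T cells (in place of 1538 and 1324), and 111 and 2 among CD8+ T cells (in place of 2066 and 2017). Where a background is given, these shares of members lie close to it, so the family as a set did not stand out. The results concern its single members.

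The separation of the libraries was also counted beside that of all genes, without a test. In STAT3-/-PD-1-/- against WT CD4+ T cells, 3 members were higher and 4 lower in both libraries without overlap, beside 59.2% of all genes, and in CD8+ T cells 1 was higher and 4 lower, beside 59.7%. Against STAT3-/- T cells, 3 were higher and 3 lower in CD4+ (59.2% of all genes), and 0 higher and 3 lower in CD8+ T cells (63.1%). For STAT3-/- against WT, 2 were higher and 1 lower in CD4+ (38.2%) and 3 higher and 0 lower in CD8+ T cells (43.6%). Over the 10 members, the log2 fold changes of STAT3-/-PD-1-/- against WT had a median of -0.12 for CD4+ and -0.08 for CD8+ T cells, beside -0.01 and 0.00 over all genes tested.

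**Figure D3:**
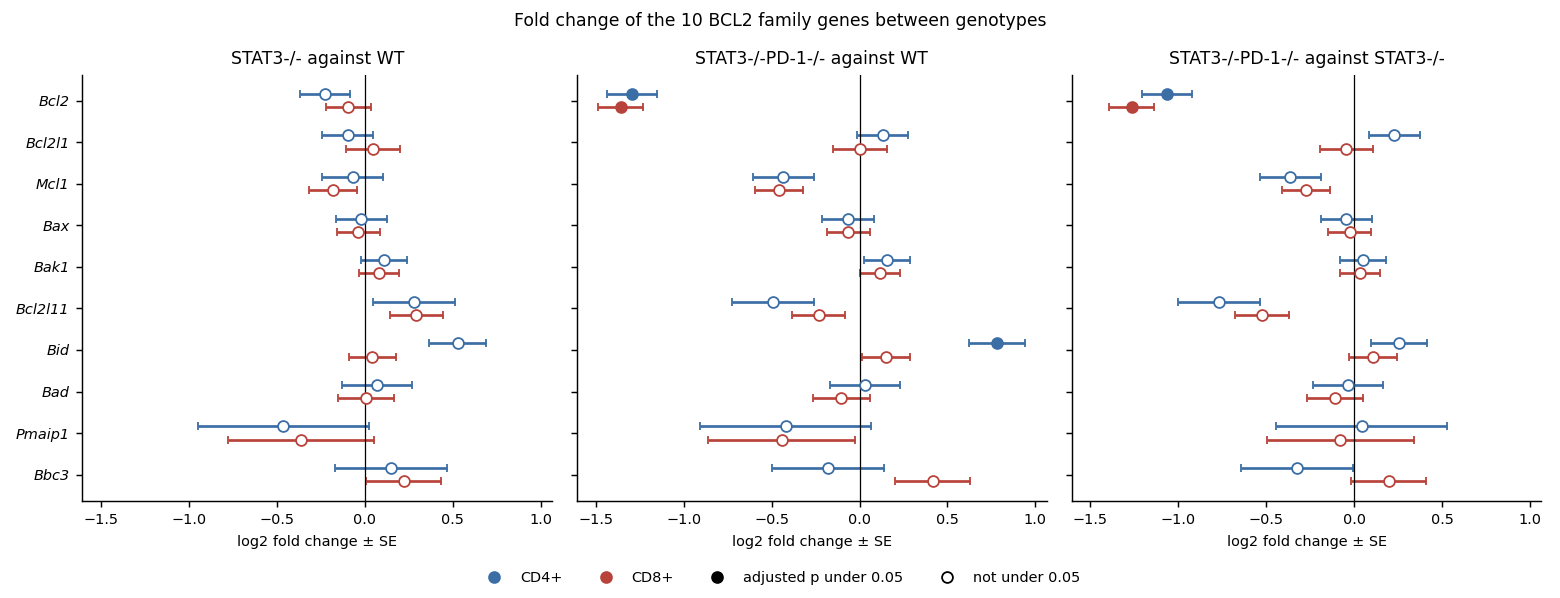
Log2 fold change with its SE (x axis) of each of the 10 genes (y axis) between genotypes, in CD4+ and CD8+ T cells, from the edgeR fit of each subset. Bcl2 lies between -1.36 and -1.06 in the comparisons of STAT3-/-PD-1-/- T cells, and Bid reaches 0.78 in CD4+ T cells against WT.

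On the RPKM scale, the summed share of Bcl2, Bcl2l1 and Mcl1 among the 10 genes was smaller in STAT3-/-PD-1-/- T cells, as a description without a test. Together they made up 45.0% and 43.6% of the summed RPKM of the 10 genes in the WT CD4+ libraries, 43.0% and 41.5% in STAT3-/- and 37.0% and 38.7% in STAT3-/-PD-1-/-. In CD8+ T cells, their share was 41.8% and 39.3%, 38.7% and 37.5%, and 32.6% and 34.0%. The STAT3-/-PD-1-/- libraries had the lowest summed share in each subset. The share of Bcl2l1 alone was higher, at 8.08% and 8.61% in STAT3-/-PD-1-/- against 6.02% to 7.26% in the other CD4+ libraries, and overlapped in CD8+ T cells (6.12% and 6.65% against 5.32% to 6.13%). The summed RPKM of Bax and Bak1 stayed between 177 and 196 over the 12 libraries, while that of the anti-apoptotic members fell from 241 and 274 in WT to 191 and 193 in CD4+ T cells of STAT3-/-PD-1-/- donors and from 194 and 240.2 to 155 and 158 in CD8+ T cells. The share of the 5 BH3-only members overlapped between genotypes, from 23.3% to 26.3% in CD4+ and from 23.7% to 27.8% in CD8+ T cells, and their summed RPKM was 136 and 116 in STAT3-/-PD-1-/- against 155 and 132 in WT CD4+ libraries, and 132 and 110.2 against 145 and 123 in CD8+ libraries. The anti-apoptotic gene Bcl2a1b lies outside these sums, at a mean of 96.1 RPKM in STAT3-/-PD-1-/- and 93.5 in WT CD4+ T cells and 79.3 and 96.2 in CD8+ T cells, with no call.

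The ratio of Bcl2 to Bcl2l11 on the RPKM scale, an index of the BCL2 to BIM balance at the RNA level, was 1.45 and 0.956 in WT CD4+ T cells, 0.886 and 0.755 in STAT3-/- and 0.639 and 0.688 in STAT3-/-PD-1-/-. In CD8+ T cells it was 1.08 and 0.805, 0.777 and 0.665, and 0.418 and 0.441. The 3 genotypes were thus ordered WT, STAT3-/- and STAT3-/-PD-1-/- without overlap in each subset, as a description without a test. The gap between WT and STAT3-/- libraries (0.956 to 0.886 in CD4+, 0.805 to 0.777 in CD8+) was smaller than that between the 2 WT libraries. Neither gene was called there, and 38.2% (CD4+) and 43.6% (CD8+) of single genes did not overlap between these 2 genotypes. The ratio of Mcl1 to Bcl2l11 RPKM had no such order, at 6.80 and 3.72 in WT, 5.11 and 2.96 in STAT3-/- and 4.73 and 5.65 in STAT3-/-PD-1-/- CD4+ libraries, and 4.77 and 3.34, 3.44 and 2.43, and 3.08 and 3.85 in CD8+ libraries. The ratio of Mcl1 to Bcl2 RPKM went the other way, from 3.65 to 5.77 in WT and STAT3-/- libraries to 7.37 to 8.72 in STAT3-/-PD-1-/- libraries of both subsets, while the share of Mcl1 in the summed RPKM of the 10 genes was 25.5% and 26.8% in STAT3-/-PD-1-/- against 32.2% and 28.9% in WT CD4+ libraries.

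**Figure D4:**
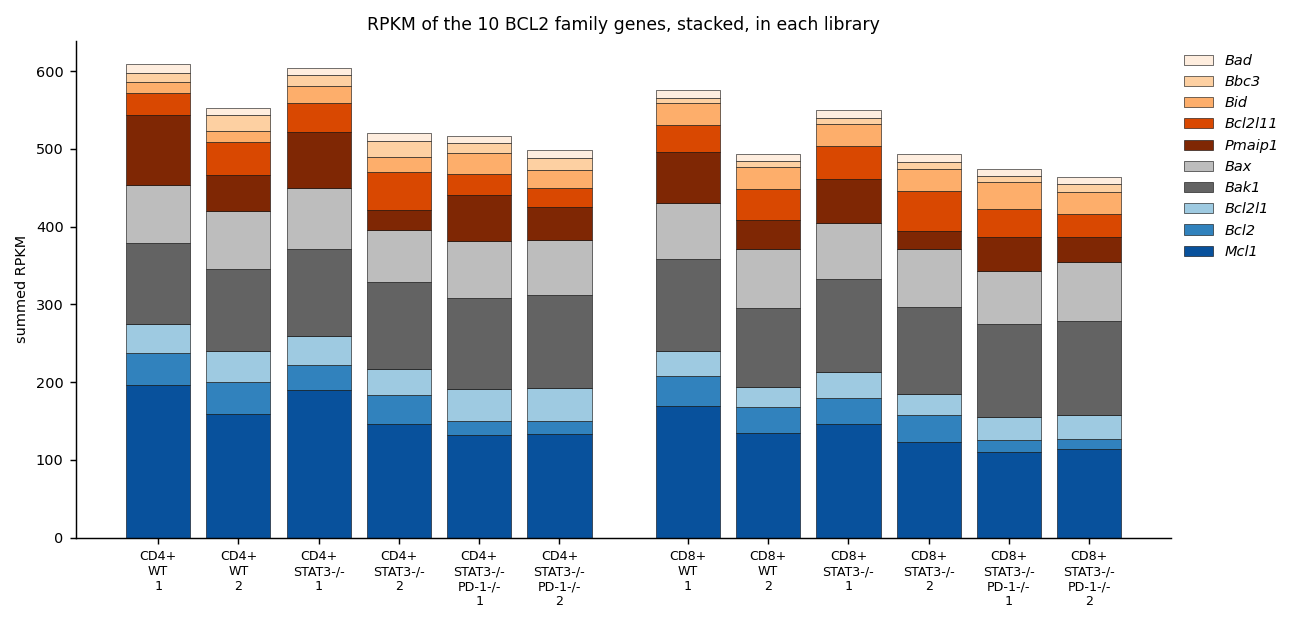
Summed RPKM (y axis, starting at 0) of the 10 genes, stacked by gene, in each of the 12 libraries (x axis). The summed anti-apoptotic layers are lower in STAT3-/-PD-1-/- libraries, through Bcl2 and Mcl1 and not Bcl2l1, with 191 and 193 RPKM as compared with 216 to 274 in the other CD4+ libraries and 155 and 158 as compared with 185 to 240.2 in the other CD8+ libraries, and the Bax and Bak1 layers keep nearly the same height.

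The 2 subsets also differed in some of these genes. Over the 3 genotypes, Bid was higher and Bcl2l1 and Bbc3 were lower in CD8+ than in CD4+ T cells, which is 3 of 10 members beside 25.5% of 12334 genes. Bid showed a log2 difference of 0.57 (SE 0.08, edgeR adjusted p = 0.000661), with 51.2 to 63.6 TMM CPM in CD8+ and 27.1 to 49.7 in CD4+ T cells. Bbc3 differed by -0.94 (SE 0.17, adjusted p = 0.00253 with edgeR), with 12.9 to 21.3 TMM CPM in CD8+ and 21.7 to 39.4 in CD4+ T cells. Bcl2l1 differed by -0.37 (SE 0.08, edgeR adjusted p = 0.00849). For these 3 genes, all 6 CD8+ libraries lay on one side of all 6 CD4+ libraries, which 5.38% of all genes did. Markers of other cells differed between the subsets too. The NK cell markers summed to 14.7 to 27.01 TMM CPM in CD4+ and 31.2 to 91.2 in CD8+ libraries, and Klrb1c, Klre1 and Eomes were all called higher in CD8+ T cells (log2 differences of 1.24, 1.80 and 2.55). Cd68 (1.59) of the myeloid, Cd79b (2.49) of the B cell and Apoa2 (0.72) of the hepatocyte markers were higher and Cd22 (-0.98) lower in CD8+ T cells, and the endothelial markers, nearly all Pecam1, summed to 167 to 198 in CD4+ and 111 to 129.9 in CD8+ libraries. Their part in the differences between subsets, those of the gene lists included, was not tested.

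CD4+ and CD8+ libraries of the same genotype and number came from the same livers, and with the pool of recipients as a block 7 of 10 members passed and 5590 genes, in place of 3145. The 4 that were added were Bcl2 (-0.20), Mcl1 (-0.27) and Pmaip1 (-0.36), each lower in CD8+ T cells, and Bcl2l11 (0.18), higher in CD8+ T cells, as log2 differences within pools. Of the 10 members, 5 were thus called lower and 2 higher in CD8+ T cells within pools. Without the block, edgeR did not call these 4 with the filter used here (adjusted p = 0.0672 to 0.422), whereas Bcl2 and Mcl1 were called with DESeq2, and Mcl1 also when all genes with at least 1 count were tested. No member passed in a test of whether the change between genotypes differed between the subsets. The background there was 0% of genes for STAT3-/- against WT, 0.00811% for STAT3-/-PD-1-/- against WT and 0% for STAT3-/-PD-1-/- against STAT3-/-, and at an unadjusted p under 0.05 Bid was the 1 member in the first and second and 0 in the third, beside 228, 547 and 443 of 12334 genes. With DESeq2, the 3 tests called 3, 75 and 21 genes.

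Among the rest of the family, 11 of 15 further genes were tested. Bnip3, a mitochondrial BH3 protein linked to hypoxia and mitophagy, was higher in STAT3-/-PD-1-/- than in WT CD4+ T cells (log2 fold change 1.85, edgeR adjusted p = 0.0450) and than in STAT3-/- CD8+ T cells (2.18, 0.0349), at a low level of 1.10 to 1.59 TMM CPM against 0.212 to 0.667 in the other libraries. No other gene of this list passed between genotypes. Bcl2a1b and Bcl2a1d, 2 near-identical copies of the anti-apoptotic A1 gene, reached 45.7 to 105 and 9.96 to 20.9 TMM CPM with no call between genotypes, and their split between copies is uncertain. Between subsets, Bik (0.77) was higher, and Bcl2l14 (-1.18) and Bcl2l2 (-0.79), which encodes the anti-apoptotic BCL-W, were lower in CD8+ T cells.

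Downstream of the family, the apoptosome and caspases list (8 of 8 tested) held 1 gene higher and 0 lower in STAT3-/-PD-1-/- against WT CD4+ T cells, 1 higher and 1 lower in CD8+ T cells, 1 higher and 0 lower against STAT3-/- in CD4+ and 1 higher and 0 lower in CD8+ T cells. Parp1, a DNA repair enzyme and caspase substrate, was the gene called in all 4, with log2 fold changes of 0.66 and 0.55 in CD4+ and 0.88 and 0.67 in CD8+ T cells. Casp6 was the other gene that passed, lower than in WT CD8+ T cells (-0.65). A count of 1 or 2 of 8 lies near the 11.1% to 17.2% of all genes called in these comparisons. The median of the list lay between -0.09 and 0.02, beside medians of -0.01 to 0.00 over all genes. In the 7 caspase inhibitors and their antagonists, 1 gene was called higher and 0 lower in 3 of the comparisons and 0 against STAT3-/- CD4+ T cells. These were Birc5 (0.71 against WT in CD4+ T cells), which encodes survivin and is also a gene of dividing cells, and Htra2 (0.64 and 0.52 in CD8+ T cells), a mitochondrial protease that antagonises the inhibitors. The list medians were -0.27 and -0.32 in CD4+ and -0.18 and -0.26 in CD8+ T cells against WT and STAT3-/-. In each comparison, 4 of 7 genes in CD4+ and 5 of 7 in CD8+ T cells lay lower without overlap, and 1 or 2 lay higher. Over all genes, 3533 (against WT) and 3678 (against STAT3-/-) of 11959 lay lower without overlap in CD4+ T cells. In CD8+ T cells, these were 3572 and 3786 of 12002. In either direction, 59.2% to 63.1% of all genes lay without overlap. Whether the list differed from all genes was not tested.

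At the mitochondrial outer membrane, Vdac1, the most abundant channel of that membrane in many cells, was higher in STAT3-/-PD-1-/- T cells in all 4 comparisons (0.60 and 0.65 in CD4+, 0.74 and 0.66 in CD8+ T cells). It was at 172 and 211 TMM CPM in STAT3-/-PD-1-/- CD4+ T cells, as compared with 120.0 to 131 in the other CD4+ libraries. The 11 mitochondrial partners tested include Opa1, Endog and Aifm1, which are not outer membrane proteins. Of the 11, 9 or 10 had a positive log2 fold change in each of the 4 comparisons. In each, 1 or 2 passed higher and 0 passed lower, and the list medians were 0.18 to 0.26. Over all genes, 5857 of 11959 had a positive log2 fold change in each comparison of CD4+ T cells, and 5997 (against WT) and 5972 (against STAT3-/-) of 12002 in CD8+ T cells, and the number of partners that passed lay near the background share of called genes. The comparisons of a subset share the STAT3-/-PD-1-/- libraries. Aifm1 was the other gene that passed (0.46 against WT in CD8+ T cells).

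Of 11 p53 list genes tested, Trp53inp1, a p53-induced stress gene, was lower in STAT3-/-PD-1-/- T cells in all 4 comparisons, with log2 fold changes from -1.16 to -0.87. Its level was 202 and 244 TMM CPM in STAT3-/-PD-1-/- CD4+ T cells against 366 to 480 in the others, and 100.1 and 122 against 207 to 255 in CD8+ T cells. Phlda3 was higher than WT in CD4+ (1.10) and Trp53 itself higher than WT in CD8+ T cells (0.69), so members of this list passed in both directions. In the turnover list (7 tested), Ddb1 was higher than WT in CD4+ (0.53) and higher than both other genotypes in CD8+ T cells (0.67 and 0.53). Huwe1, a ubiquitin ligase known to act on MCL1, was higher in CD8+ T cells (0.57 against WT and 0.42 against STAT3-/-). None of the 6 lists had a gene that passed in STAT3-/- against WT T cells of either subset.

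**Figure D5:**
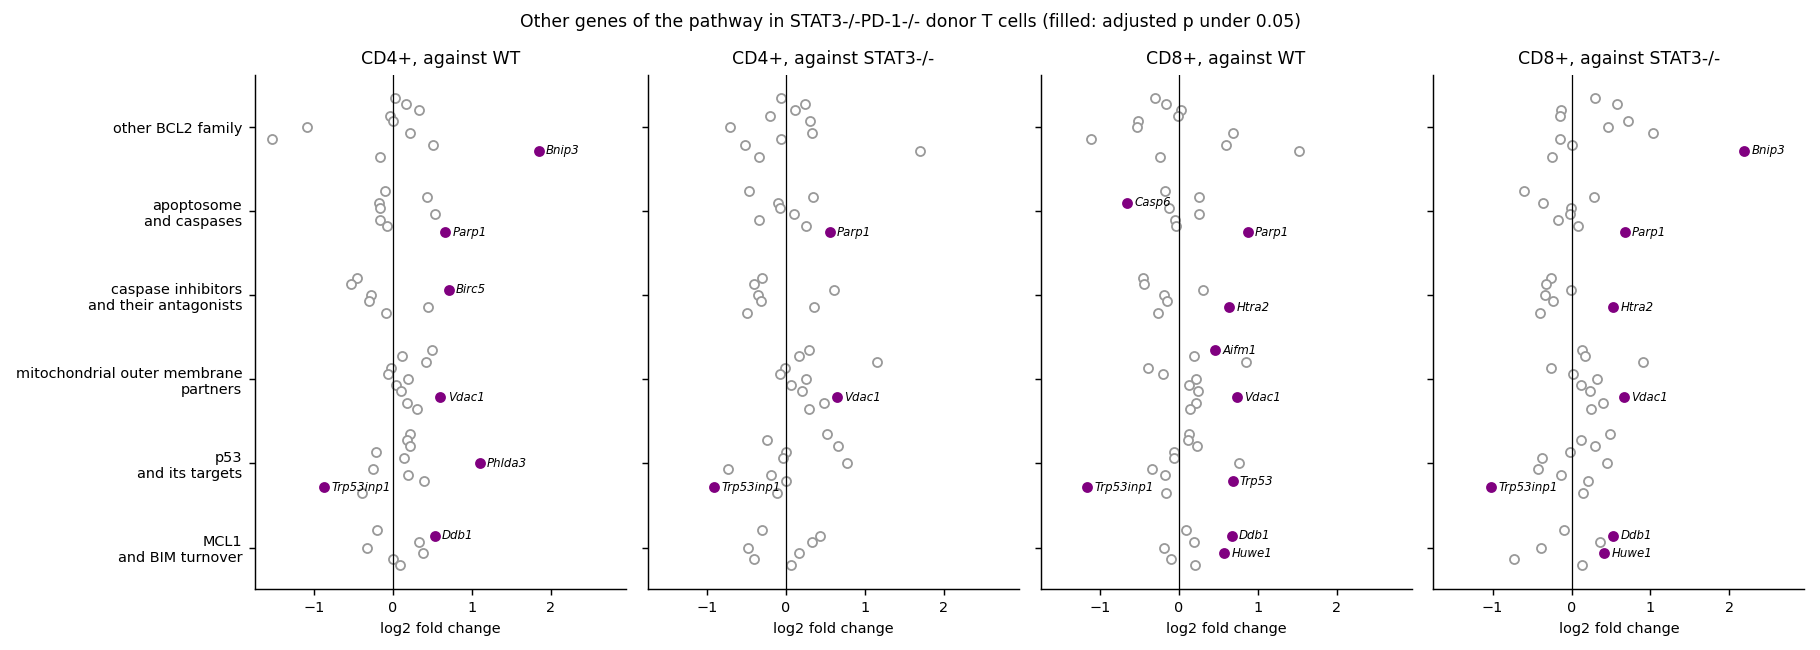
Log2 fold change (x axis) of the tested genes of 6 apoptosis gene lists (y axis) in STAT3-/-PD-1-/- T cells, against WT and against STAT3-/- in each subset; filled points have an edgeR adjusted p under 0.05. Parp1, Vdac1 and Trp53inp1 are filled in all 4 panels, the first 2 on the higher and Trp53inp1 on the lower side.

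Between the subsets, 7 of 11 p53 list genes were lower in CD8+ than in CD4+ T cells and 0 were higher, beside 1551 of 12334 genes lower and 25.5% called in either direction, with a list median of -0.41 beside 0.00 over all genes. The largest differences were in Cdkn1a, which encodes the cell cycle inhibitor p21 (-1.17), Trp53inp1 (-0.88), Phlda3 (-0.71) and Sesn1 (-0.68), and Bbc3, one of the 10 members and itself a p53 target, was lower as given above. Of the caspases and apoptosome genes, Parp1 (0.51) was higher and Casp6 (-0.31) lower in CD8+ T cells. Of the caspase inhibitors, Birc5 (0.62) was higher, and Birc3 (-0.59) and Xiap (-0.33) were lower. Endog (0.57), Vdac3 (0.27) and Aifm1 (0.27) were the 3 mitochondrial partners that passed, all higher, and Fbxw7 (-0.31) was the 1 turnover gene, lower.

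The genes whose levels followed Bcl2 most closely over the 12 libraries were Itgb2, Skap1, Pitpnc1, Stk4 and Sntb1, with Pearson r of log2 TMM CPM from 0.984 to 0.987 among 8704 genes searched. Itgb2, which encodes the shared β2 integrin chain of leukocytes, was at 602 to 752 TMM CPM in STAT3-/-PD-1-/- libraries and 895 to 982 in the others. Skap1, a T cell adaptor of integrin signaling, was at 145 to 173 against 272 to 351. The genes most like Bcl2l11 were Soat1, Herc1, Rgl2, Osbpl5 and Synj1, with r from 0.912 to 0.945. Herc1 was at 306 to 396 TMM CPM in STAT3-/- and 227 to 267 in STAT3-/-PD-1-/- libraries. These values rank genes over libraries that share genotypes, pools and depth, and carry no test.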

How the data were processed

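RNA-Seq of 12 libraries was analysed. The authors aligned reads to mm10, counted reads per RefSeq gene and deposited raw counts and RPKM values per gene and library. Labels carry an unrelated cell culture protocol and a library kit other than that of the study's methods; neither was used. Whether counting used strand is not given in the sources used here. In this work the deposited counts were fitted with edgeR 4.0.16 (R 4.3.3; TMM scaling, filterByExpr with minimum count 10 and total 15, quasi-likelihood F test, Benjamini-Hochberg adjustment over all genes tested, threshold 0.05): 6 libraries of a subset for genotypes, and all 12 for subsets and for differences between subsets. SEs were the log2 fold change over the square root of F, and intervals are 95%. The deposited RPKM were used to compare genes with each other. Where symbols were duplicated (4 rows), none was a gene named here. Depth was 21676125 to 24551477 counts, so the spread between libraries (biological coefficient of variation 0.189 in CD4+, 0.169 in CD8+), not counting error, limits the precision; with 2 libraries a group an exact permutation test cannot pass and none is given. Replicate libraries differed by more than counting noise.

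The 10 genes and all lists were chosen with earlier results of these data known. Some genes of the lists are not reported here. Named from each other list were up to 4 genes passing in a comparison, largest change first; promoters were shown for members passing between genotypes, and the genes most like Bcl2 and Bcl2l11 were the 5 with the highest Pearson r over 12 libraries (mean log2 CPM of at least 3). Promoter sequences came from RefSeq; Pmaip1 was not matched. CD4+ and CD8+ libraries of a genotype and number came from the same livers and deviated together (r 0.638 to 0.792 in 3 genotypes). The pool was therefore used as a block beside the comparison of subsets. Same-numbered WT and STAT3-/- libraries of a subset, from different recipients, also deviated together (r 0.761 and 0.766). Such correlation is thus not particular to a pool. Alternatives were DESeq2 1.42.0, RLE scaling, other filters, limma 3.58.1 on log2(RPKM + 1) and log2(RPKM + 0.1), other sets of libraries, a replicate block and leaving out each library.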

Additional observations from a re-analysis of the deposited data

How the results depend on the processing

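Bcl2 was called lower in 9 of 9 alternatives that kept all libraries of the 2 groups in each of the 4 comparisons of STAT3-/-PD-1-/- T cells, as was Bid higher in STAT3-/-PD-1-/- against WT CD4+ T cells. The count of members moved from 1 to 2 against STAT3-/- in CD4+ T cells, adding Bcl2l11, with DESeq2, with genes of at least 1 count, with the replicate block, with only the 4 libraries compared and with all 12 libraries in 1 fit. It moved from 1 to 2 against STAT3-/- in CD8+ T cells, adding Bcl2l11, with the first 4 of these, and from 1 to 2 against WT in CD8+ T cells, adding Mcl1, with the first 3. Between subsets it moved from 3 to 5 with DESeq2 (adding Bcl2 and Mcl1), to 4 with genes of at least 1 count (adding Mcl1) and to 7 with the replicate block for the pool. Counts of all genes called moved as well. For STAT3-/- against WT in CD4+ T cells (40), they were 263 with DESeq2, 165 with genes of at least 1 count, 303 with the replicate block, 1 with only the 4 libraries and 164 with all 12. For STAT3-/- against WT in CD8+ T cells (7), they were 201, 66, 1 with at least 10 counts in every library, 0 with only the 4 libraries, 3 and 1 with limma on log2(RPKM + 1) and log2(RPKM + 0.1), and 20 with all 12. For STAT3-/-PD-1-/- against WT in CD4+ T cells (1538) they were 3104 with the block and 2462 with all 12, and against STAT3-/- (1324) 2067 with DESeq2, 3105 with the block and 2299 with all 12. Genes called between subsets rose from 3145 to 5590 with the pool block. For the differences between subsets, DESeq2 called 3, 75 and 21 genes, and the pool block 84 and 22 for the last 2. The causes of these moves were not tested.

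No label ties a replicate number to a batch shared between genotypes. The sample numbers in the titles nevertheless form a consecutive run for each replicate number. Deviations of same-numbered WT and STAT3-/- libraries correlated at r 0.761 in CD4+ and 0.766 in CD8+ T cells. Within a subset, pairs with STAT3-/-PD-1-/- libraries correlated less, at r 0.0447 to 0.369. The study describes its sorted liver T cells as used for both RNA-Seq and TCR sequencing and names 2 batches for the latter, so the replicate number may mark a batch, although no source used here says which library belongs to which. With the replicate block, Mcl1 was also called lower in STAT3-/-PD-1-/- against WT CD4+ T cells. Leaving out 1 library at a time, members called ranged from 0 to 2 for STAT3-/-PD-1-/- against WT and against STAT3-/- in CD4+ T cells, from 1 to 1 against WT and 0 to 2 against STAT3-/- in CD8+ T cells, from 0 to 0 for STAT3-/- against WT in both subsets, and from 3 to 4 between subsets. Genes called ranged from 1 to 49 (STAT3-/- against WT), 62 to 1947 (STAT3-/-PD-1-/- against WT) and 0 to 1212 (against STAT3-/-) in CD4+ T cells, from 0 to 2, 111 to 1908 and 2 to 1878 in CD8+ T cells, and from 2401 to 3217 between subsets. The lowest counts for STAT3-/-PD-1-/- T cells were all without STAT3-/-PD-1-/- library 2. No call reversed direction.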
